A study of Mus musculus with 26 samples.

Results

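The genes described here are Cyp26b1 and 9 other genes of the retinoic acid pathway (Aldh1a1, Aldh1a2, Aldh1a3, Rdh10, Crabp1, Crabp2, Rbp4, Rara and Rarb), 10 of the 55416 genes counted in the mouse choroid plexus (ChP), the tissue that secretes most of the cerebrospinal fluid. Cyp26b1 was selected on its counts in these libraries, which were high in some of the lesioned mice, and the other members by their place in the same pathway. The difference between the lesioned and the sham-operated group is therefore a description for all 10 members and carries no test. ChP of the 4th ventricle came from adult male C57Bl6J mice, 12 with a sham operation (Ctrl) and 12 whose suprachiasmatic nuclei, the site of the central circadian clock, had been destroyed electrolytically on both sides (SCNx). Both groups had been returned to a light-dark cycle and were then held in constant darkness, and 1 mouse per group was taken every 4 h from circadian time 0 (CT0) to CT44. The SCN lesions had been checked by locomotor activity and histology. The third group (KO) held 1 adult male mouse at ZT7 and 1 at ZT18 (hours after lights on) of the genotype FoxJ1-ERT2-Cre+/-; Bmal1fl/fl on tamoxifen diet under a light-dark cycle, whose ChP was cut out of frozen sections by laser capture. Sham surgery placed the electrodes without current. In KO, the Foxj1 promoter drives the recombinase in cells with motile cilia, among them ChP epithelium, so other cells of the tissue keep Bmal1.

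Retinoic acid is the active form of vitamin A. Retinol travels in blood bound to the carrier RBP4 and to transthyretin, is oxidised to retinal by RDH10, and retinal is oxidised to retinoic acid by the retinal dehydrogenases ALDH1A1, ALDH1A2 and ALDH1A3. In the cytosol the acid is bound by CRABP1 and CRABP2. In the nucleus it binds the receptors RARA, RARB and RARG, which sit on DNA with a retinoid X receptor. Enzymes of the CYP26 family, including CYP26B1, hydroxylate retinoic acid and so end its action, and genes of this family and Rarb are themselves known targets of the receptors. The ChP of the hindbrain is a known site of retinoic acid synthesis.

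A classic response element is a direct repeat of 2 core motifs with a spacer of 5 bases (DR5). It was searched on both strands, with both copies in the same orientation. A copy could read AGGTCA. The variant AGTTCA was also accepted. The other variant accepted was GGTTCA. RefSeq promoters (250 bases before to 50 after a start, GRCm38.p6) were at hand for 7 of the 10 members. The promoters of Rarb (chr14:16575427-16575726, minus strand) and Cyp26b1 (chr6:84593761-84594060, minus strand) are shown because these were the members that stood high in the same SCNx libraries. Capitals mark the 2 core motifs of a DR5 match.

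Rarb: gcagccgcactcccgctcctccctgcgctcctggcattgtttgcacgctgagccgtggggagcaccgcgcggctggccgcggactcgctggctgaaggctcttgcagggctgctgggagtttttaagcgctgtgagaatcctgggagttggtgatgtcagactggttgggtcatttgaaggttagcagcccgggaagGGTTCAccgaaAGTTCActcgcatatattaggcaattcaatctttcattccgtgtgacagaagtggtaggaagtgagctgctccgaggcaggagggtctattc
Cyp26b1: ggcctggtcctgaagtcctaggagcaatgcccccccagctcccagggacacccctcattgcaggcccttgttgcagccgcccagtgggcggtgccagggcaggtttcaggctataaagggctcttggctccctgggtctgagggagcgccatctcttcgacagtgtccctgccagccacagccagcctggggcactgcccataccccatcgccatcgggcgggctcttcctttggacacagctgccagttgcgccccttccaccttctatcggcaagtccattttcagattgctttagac

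The match in Rarb lies 53 to 37 bases before the start. It was the match of 1 of the 12 member promoters, and 20 of all 32851 promoters (0.0609%) held one. Its 2 copies, GGTTCA and AGTTCA, are the 2 variants accepted beside AGGTCA. The match thus followed from the choice of variants, and the share of promoters carries no test. The window of Cyp26b1 holds no DR5 match. In the wider list of 44 other retinoid genes described further on, the promoter of Cyp26a1 (chr19:37697558-37697857, plus strand) held a match, 1 of 46 promoters. The clock motif CACGTG occurred in 2 of the 12 member promoters and in 7.15% of all promoters. Both were overlapping windows of Rara that hold the same site, so it was counted 2 times.

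Library totals of estimated counts, in units of 1e+06, were 38.8 to 47.3 in Ctrl, 41.8 to 49.5 in SCNx and 17.4 to 18.1 in KO. Values are CPM (counts over the library total, times 1e+06), scaled in Ctrl and SCNx with TMM (trimmed mean of M-values) factors, and are not per length, so they are compared between libraries and not between genes. The 10 ChP epithelium markers, with Ttr and Enpp2 among them, summed to 143055 to 166592 CPM in Ctrl and to 105600 to 167134 in SCNx. Genes with a mean of 1 CPM or more in each group were tested, 13697 in all and 7 of the 10 members. Aldh1a3 and Crabp1 stayed below this level in both groups, and Crabp2 in SCNx. In these bulk samples, fewer cells of a type and less RNA per cell cannot be told apart.

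4 libraries stood apart by markers of other tissues. All 10 hepatocyte markers were highest of their group in Ctrl CT16 (sum 2029 CPM, group median 3.84) and in SCNx CT0 (sum 11422 CPM, group median 5.60). In Ctrl CT4 the 7 neuron markers summed to 305 CPM, 22-fold the median of the other Ctrl libraries, and the 8 meningeal fibroblast markers to 132 CPM, 8.22-fold. In SCNx CT32 the neuron markers summed to 286 CPM, the 5 astrocyte markers to 662 CPM and the 5 oligodendrocyte markers to 260 CPM, and the ChP epithelium sum of 105600 CPM was the lowest of the 24 Ctrl and SCNx libraries. Several results that rest on these libraries, though not all, are given with and without them.

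Cyp26b1 stood far above the Ctrl range in 3 SCNx libraries and was moderately higher in 4 more. In Ctrl it ranged from 2.95 to 8.06 CPM with a median of 5.09. In SCNx it ranged from 4.22 to 32.6 CPM with a median of 8.66. The 3 libraries at CT12 (27.3 CPM), CT24 (32.6 CPM) and CT40 (31.1 CPM) stood alone, the lowest of them 2.24-fold above the next library. They held 57.3% of the CPM summed over the 12 SCNx libraries. Their mean of 30.3 CPM was 5.83-fold the Ctrl mean of 5.2 ± 1.83 CPM (SD, n = 12). The other 9 SCNx libraries had a mean of 7.52 ± 2.93 CPM, 1.45-fold the Ctrl mean, and overlapped with Ctrl. The values of 7 of the 12 SCNx libraries, those at CT0, CT4, CT12, CT16, CT24, CT28 and CT40, were above the highest Ctrl library, and 5 lay within the Ctrl range.

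The SCNx mean of Cyp26b1 was 13.2 ± 10.7 CPM (SD, n = 12), a log2 fold change of 1.35 ± 0.34 (SE) over Ctrl. Without the 3 high libraries the log2 fold change was 0.53. The high libraries fell at hours 12, 0 and 16 of the 24 h cycle, and the fitted 24 h curve of SCNx had a log2 amplitude of 0.42 ± 0.37 (SE). The SE of this and all other amplitudes came from a separate least-squares fit to log2 CPM, not from the fit that gave the amplitude.

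**Figure D1:**
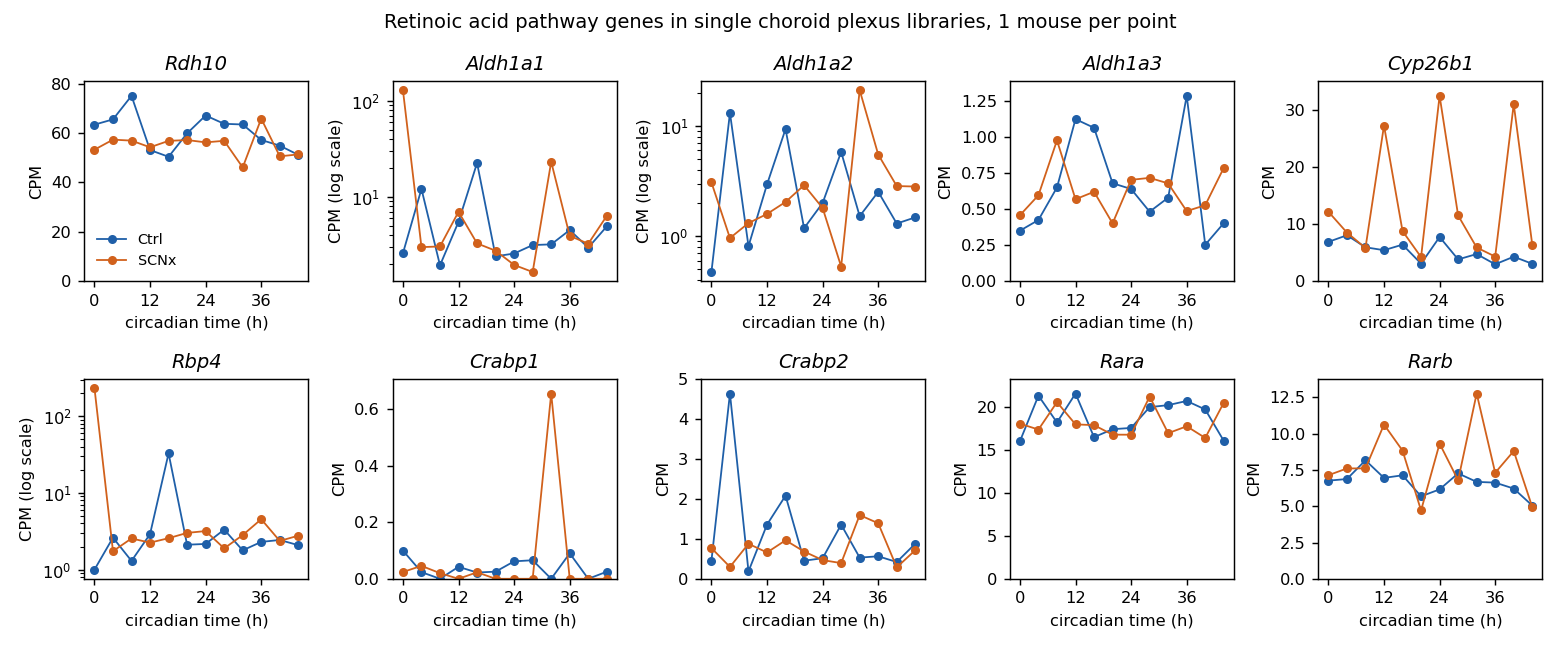
CPM of the 10 members (a panel each) against circadian time in hours, with Ctrl in blue and SCNx in orange and 1 mouse per point. The axis is logarithmic for Aldh1a1, Aldh1a2 and Rbp4 and starts at 0 elsewhere. Cyp26b1 has 3 SCNx peaks (27.3, 32.6 and 31.1 CPM), and Rbp4 and Aldh1a1 peak in SCNx CT0.

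Marker lists of other cell types were read in the 3 libraries with high Cyp26b1. None of the 10 ChP epithelium, 5 endothelial, 5 mural, 8 meningeal, 5 astrocyte or 10 hepatocyte markers was above the highest Ctrl library in SCNx CT12, CT24 or CT40, and of the 6 stromal fibroblast markers 1 was, in SCNx CT40. The hepatocyte sums were 3.54, 4.00 and 3.28 CPM, with 4, 4 and 2 of the 10 markers at 0. The meningeal sums were 15.8, 15.9 and 14.8 CPM and ranked 9, 8 and 10 among the 12 SCNx libraries. Stromal fibroblast sums ranked 7, 8 and 2, and mural cell sums 9, 1 and 6. Of the neuron list, 3 of 7 markers were above the highest Ctrl library in SCNx CT12, with a sum of 45.4 CPM, and none in SCNx CT24 or CT40. With Ctrl CT4 left out of the comparison, 5 of the 7 neuron and 3 of the 5 astrocyte markers were above the highest Ctrl library in SCNx CT12, and 1 astrocyte marker, Gfap, in SCNx CT40. The astrocyte sum of SCNx CT12 was 206 CPM and its oligodendrocyte sum 93.7 CPM, each of rank 3 among the SCNx libraries. The part of neighbouring tissue in the level of SCNx CT12 was not tested.

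Rarb, a receptor gene, was the other member that stood high where Cyp26b1 did. It ranged from 5.05 to 8.17 CPM in Ctrl with a median of 6.72. In SCNx it ranged from 4.71 to 12.8 CPM with a median of 7.61. The 5 SCNx libraries above the highest Ctrl library were CT12 (10.6 CPM), CT16 (8.84), CT24 (9.32), CT32 (12.8) and CT40 (8.81). These include all 3 libraries with high Cyp26b1, yet the highest value, at CT32, came with a Cyp26b1 of 5.90 CPM, within the Ctrl range. The SCNx mean was 8.04 ± 2.25 CPM against 6.63 ± 0.80 CPM in Ctrl (SD, n = 12 each), and the log2 fold change was 0.28 ± 0.12 (SE). Without SCNx CT12, CT24 and CT40 it was 0.19. Over all alternative fits, those that left out SCNx CT32 among them, it lay between 0.19 and 0.33.

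Rara, the second receptor among the members, had overlapping groups. It ranged from 16.0 to 21.6 CPM in Ctrl (median 19.0) and from 16.4 to 21.2 CPM in SCNx (median 17.8), with a log2 fold change of -0.04 ± 0.06 (SE). No SCNx library was above the highest Ctrl library. In the 3 libraries with high Cyp26b1, Rara lay at 18.0, 16.8 and 16.4 CPM.

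**Figure D2:**
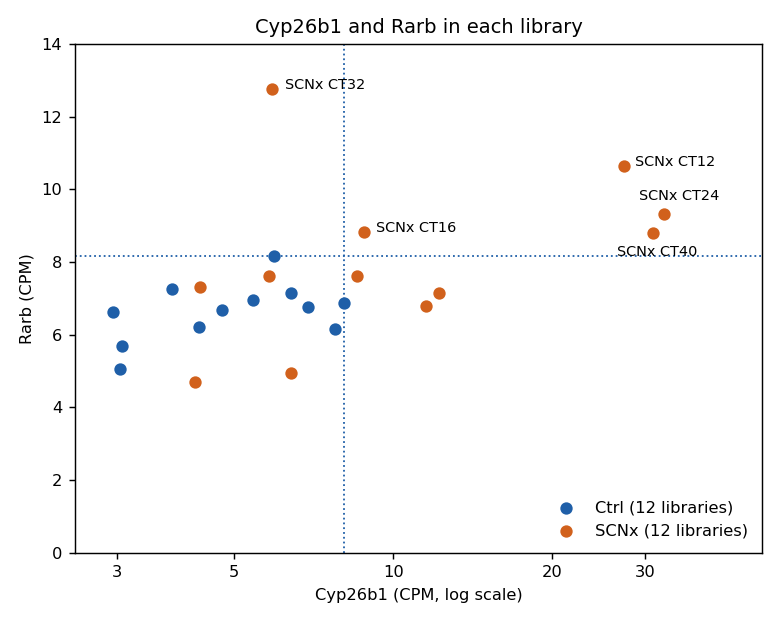
Rarb CPM against Cyp26b1 CPM (logarithmic axis) in the 12 Ctrl (blue) and 12 SCNx (orange) libraries, with dotted lines at the highest Ctrl value of each gene. SCNx CT12, CT16, CT24 and CT40 lie above both lines, and SCNx CT32 above that of Rarb alone.

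Library by library, no SCNx library had more than 3 of the 7 tested members above the Ctrl range. Of the 7 tested members, 2 (Cyp26b1 and Rarb) were above the highest Ctrl library in SCNx CT12, where 2.35% of all tested genes were. The same 2 were above it in SCNx CT24 (11.1% of all tested genes), SCNx CT40 (7.78%) and SCNx CT16 (7.38%). In SCNx CT0 3 members were above it (Rbp4, Aldh1a1 and Cyp26b1, with 14.1% of all genes), and in SCNx CT32 another 3 (Aldh1a1, Aldh1a2 and Rarb, with 25.2%). Cyp26b1 was the member above it in SCNx CT4 (7.84% of all genes) and CT28 (12.4%). SCNx CT8 (6.69%), CT20 (8.42%), CT36 (6.08%) and CT44 (7.72%) had none. Cyp26b1 was selected for its high counts in SCNx libraries, so its place in these counts was fixed beforehand. The shares of all genes are no measure for it. With so few members these counts are a description.

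**Figure D3:**
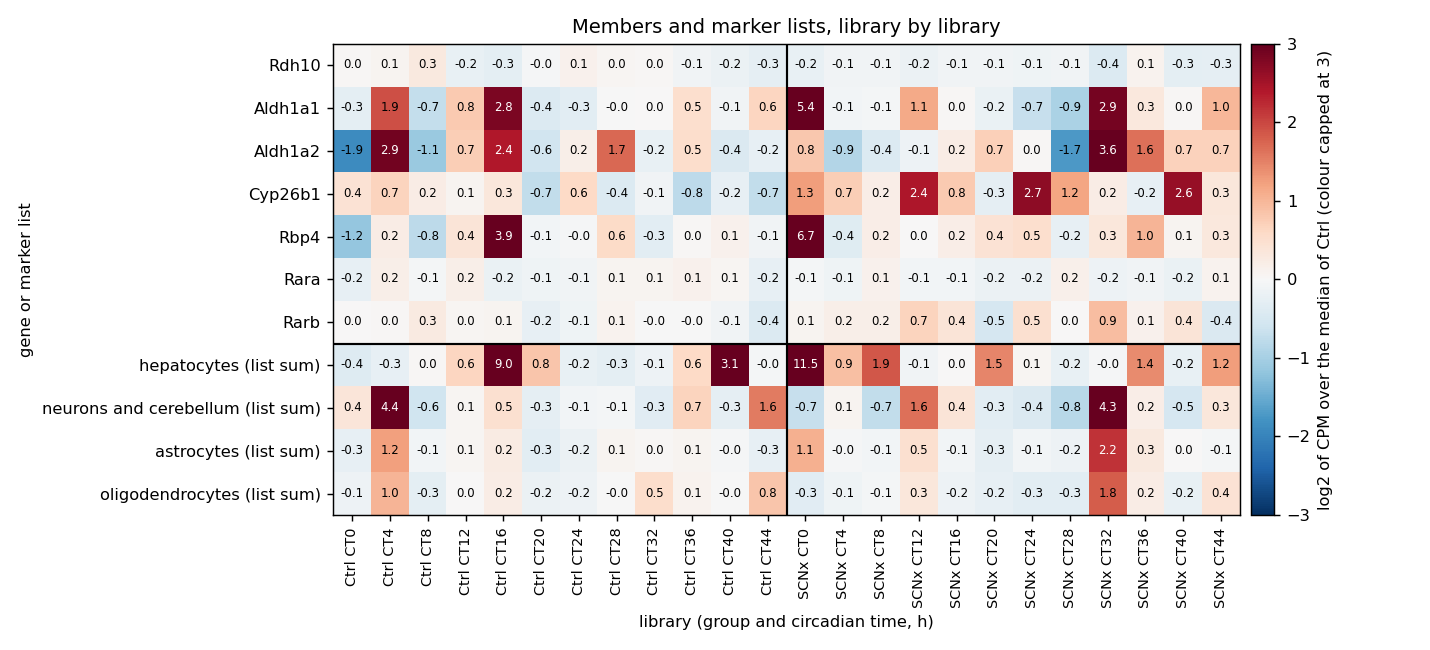
Log2 of CPM over the Ctrl median for the 7 tested members (top) and for the summed markers of 4 other cell types (bottom) in each of the 24 libraries, with red for higher and blue for lower and the colour capped at 3. Rbp4 is reddest in SCNx CT0 and Ctrl CT16, the libraries with the highest hepatocyte sums. Aldh1a1 is reddest in SCNx CT0, followed by SCNx CT32 and Ctrl CT16, and is red in Ctrl CT4 too. Neither stands out in Ctrl CT40, where the hepatocyte sum was 33.5 CPM. Aldh1a2 is red among others in Ctrl CT4 and SCNx CT32, where neuron markers are high, and Cyp26b1 in SCNx CT12, CT24 and CT40.

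The group difference of the carrier gene Rbp4 rested on 1 library. It ranged from 0.999 to 32.8 CPM in Ctrl (median 2.23) and from 1.74 to 235 CPM in SCNx (median 2.67). SCNx CT0 held 235 CPM, 91.4-fold the median of the other SCNx libraries, and Ctrl CT16 held 32.8 CPM, 15.2-fold that of the other Ctrl libraries. Every other library was at 4.55 CPM or below, so the groups overlapped apart from these. Both are the libraries rich in hepatocyte markers, and Rbp4 is a major product of the liver. Per 1000 CPM of the hepatocyte sum, the excess of Rbp4 was 15.1 CPM in Ctrl CT16 and 20.3 CPM in SCNx CT0. The log2 fold change of 2.22 ± 0.94 (SE) became -0.81 without SCNx CT0 and 0.31 without both libraries.

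Aldh1a1, a retinal dehydrogenase also abundant in liver, followed the same libraries in part. It ranged from 1.93 to 22.4 CPM in Ctrl (median 3.16) and from 1.64 to 129 CPM in SCNx (median 3.25). The highest values were those of SCNx CT0 (129 CPM), SCNx CT32 (23.1 CPM), Ctrl CT16 (22.4 CPM) and Ctrl CT4 (12.0 CPM). Its excess was 9.51 CPM in Ctrl CT16 and 11 CPM in SCNx CT0 per 1000 CPM of hepatocyte markers. These 4 libraries are those that stood apart by other tissues, and the other libraries of both groups overlapped. The log2 fold change of 1.47 ± 0.71 (SE) became -0.08 without SCNx CT0 and 0.38 without SCNx CT0 and Ctrl CT16.

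Aldh1a2, the dehydrogenase known from meninges and embryonic mesoderm, was high in other libraries. It ranged from 0.474 to 13.1 CPM in Ctrl (median 1.76) and from 0.531 to 21.1 CPM in SCNx (median 2.43). SCNx CT32 (21.1 CPM), Ctrl CT4 (13.1 CPM), Ctrl CT16 (9.35 CPM) and Ctrl CT28 (5.80 CPM) were highest. The meningeal markers summed to 132 CPM in Ctrl CT4 and 44.0 CPM in Ctrl CT16, against a Ctrl median of 16.1 CPM, but to 17.8 CPM in SCNx CT32, against an SCNx median of 18.5 CPM. SCNx CT0 had a meningeal sum of 54.5 CPM and an Aldh1a2 level of 3.08 CPM. The part of meningeal tissue in these values was not tested. The log2 fold change was 0.13 ± 0.57 (SE), -0.62 without SCNx CT32, 0.54 without Ctrl CT4, -0.22 without both and -0.62 with DESeq2, so no direction can be given.

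Rdh10 makes retinal from retinol. It ranged from 50.4 to 75.1 CPM in Ctrl (median 61.7) and from 46.1 to 65.9 CPM in SCNx (median 56.6), with a log2 fold change of -0.13 ± 0.06 (SE). No SCNx library exceeded the Ctrl range, and the lowest value was that of SCNx CT32. Rdh10 was not high where Cyp26b1 was, with 54.3, 56.3 and 50.6 CPM in SCNx CT12, CT24 and CT40.

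The members below the minimum gave low values in both groups. Aldh1a3, the third retinal dehydrogenase, averaged 0.661 ± 0.329 CPM over the Ctrl and 0.626 ± 0.159 CPM over the SCNx libraries (SD, n = 12 each). Crabp2 had means of 1.12 ± 1.23 CPM and 0.759 ± 0.408 CPM, with its highest values in Ctrl CT4 (4.64 CPM) and Ctrl CT16 (2.08 CPM). Crabp1 was at or below 0.0999 CPM in every library but SCNx CT32, which held 0.656 CPM. At these depths a count of 0 allows a level of up to 0.0774 CPM in Ctrl and 0.0718 CPM in SCNx, at 3 counts in the smallest library and for counting error alone.

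Whether transcripts of the pathway cycled over the day was tested in Ctrl, whose time course the choice of members had not used. A 24 h rhythm in Ctrl was called for 1459 of the 13697 genes (10.7%) at an adjusted p below 0.05 with the quasi-likelihood F test of edgeR, and for 1 of the 7 tested members, Rdh10. Its CPM in Ctrl was highest at CT8 (75.1) and CT24 (67.2) and lowest at CT16 (50.4) and CT44 (51.2). The fitted maximum lay at 4.45 h, and the amplitude was 0.19 ± 0.05 on the log2 scale (SE), a 1.31-fold change from trough to peak (adjusted p = 0.034, edgeR). The call was lost when Ctrl CT8, CT12, CT16, CT24, CT36, CT40 or CT44 was left out (adjusted p = 0.0517 to 0.0882, edgeR), and its amplitude then stayed at 0.17 or above. With a linear trend over time in the model the adjusted p was 0.0953, and without Ctrl CT16 and SCNx CT0 it was 0.0893 (edgeR). Other settings gave lower values. The adjusted p was 0.0101 without SCNx CT32 and 0.0138 without Ctrl CT4 and SCNx CT32 (edgeR), and 0.01 with DESeq2. Without Ctrl CT4 alone it was 0.0404 (edgeR).

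In SCNx the fitted amplitude of Rdh10 was 0.02 ± 0.05 (SE, adjusted p = 0.958, edgeR). The difference of its rhythm between the groups was not called (p = 0.0339, adjusted p = 0.289, edgeR), while 291 of the tested genes (2.12%) were called in this test. A change of its rhythm with the lesion was thus not shown. Cyp26b1 was left out of the tests in SCNx and of the difference, since its SCNx counts chose it. None of the 6 members that remained, Rdh10 among them, was called in SCNx by edgeR, where 0% of all genes were called (2032 had an unadjusted p below 0.05, and DESeq2 called 432 and limma 0). DESeq2 called 1 of the 6, Rbp4 (adjusted p = 0.0231), whose SCNx CT0 library held 235 CPM. None of the 6 was called for a difference of the rhythm by edgeR, with adjusted p-values (edgeR) of 0.225 for Rbp4, 0.406 for Aldh1a1 and 0.778 for Rarb.

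The remaining members did not pass in Ctrl. Rara had a log2 amplitude of 0.16 ± 0.05 (SE) with a peak at 8.97 h and an adjusted p of 0.113 (edgeR), and its highest Ctrl values were at CT12 (21.6 CPM) and CT4 (21.3 CPM). Cyp26b1 had an amplitude of 0.29 ± 0.37 and an adjusted p of 0.839. Rarb had an amplitude of 0.18 ± 0.11 and an adjusted p of 0.532. Aldh1a1, Aldh1a2 and Rbp4 had amplitudes of 0.45 ± 0.64, 0.48 ± 0.58 and 1.25 ± 0.66 (SE), with adjusted p-values of 0.857, 0.866 and 0.392 (edgeR). Ctrl and SCNx were fitted in 1 model with a shared estimate of the spread. The outlying SCNx libraries of Cyp26b1, Rbp4, Aldh1a1 and Aldh1a2 thus entered these errors and p-values. An absence of a rhythm in Ctrl is therefore not shown.

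**Figure D4:**
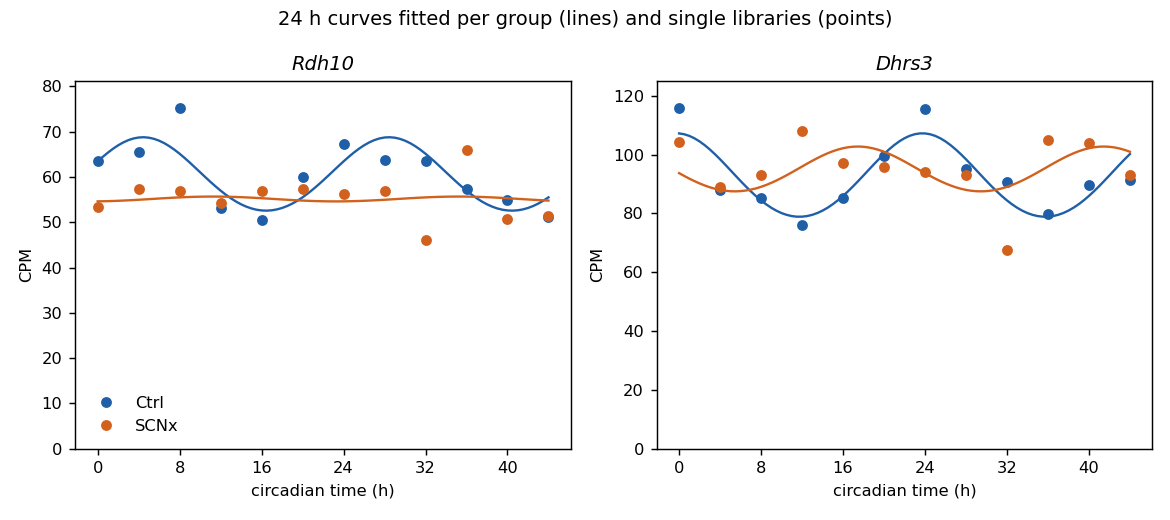
CPM of Rdh10 and Dhrs3 in single libraries (points) and the fitted 24 h curves (lines) against circadian time in hours, Ctrl in blue and SCNx in orange, axes from 0. In Ctrl the curves peak at 4.45 h and 23.8 h, and for Rdh10 the SCNx curve is nearly flat (log2 amplitude 0.02).

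The wider list of 44 genes of retinoid uptake, metabolism, receptors and responses had 29 tested genes. Between SCNx and Ctrl 0 of the 29 passed an adjusted p of 0.05 (edgeR, lowest 0.495), as did 0 (0%) of all tested genes. At an unadjusted p below 0.05 there were 2 of the 29, the receptor cofactors Ncor1 and Ncoa1, against 1283 (9.37%) of all genes, and DESeq2 and limma called 0 of the 29 too. Of the 29 fold changes 22 were above and 7 below 0, with a median log2 value of 0.05, beside 7738 above and 5959 below and a median of 0.01 for all tested genes.

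By role, the retinol carriers and uptake genes split into 2 higher and 2 lower in SCNx. Ttr, transthyretin, had 89003 ± 4191 CPM in Ctrl and 82033 ± 10210 CPM in SCNx (log2 -0.12 ± 0.06). SCNx CT32 held 55041 CPM of Ttr, the lowest of all libraries of both groups, and a fold change without it is not given here. Of the oxidoreductases 6 of 9 were higher and 3 lower. Rdh5, a retinol dehydrogenase, had 175 ± 15 and 176 ± 18.6 CPM, and Dhrs3, which turns retinal back to retinol, 92.6 ± 12.5 and 95.4 ± 10.6 CPM. None of these differences passed the test. The receptors were 2 higher and 2 lower, with Rxra at 85.9 ± 3.38 and 86.3 ± 8.30 CPM and Rxrb at 27.8 ± 2.17 and 26.7 ± 1.83 CPM.

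The 6 receptor cofactors all had fold changes above 0, with a median log2 value of 0.09. Ncor1, a corepressor, had 168 ± 8.52 CPM in Ctrl and 178 ± 14.8 CPM in SCNx. The 5 tested retinoic acid response genes were all above 0 too, with a median of 0.28, although none passed (adjusted p = 0.587 to 0.811, edgeR). Meis2, a homeobox factor, had 13.03 ± 2.02 and 15.8 ± 7.36 CPM, and Tgm2, transglutaminase 2, 12.4 ± 5.21 and 15.2 ± 4.77 CPM. These directions rested in part on the libraries rich in other tissue. Without SCNx CT32, which held 38.9 CPM of Meis2 while no other library held more than 17.3, the median was 0.07, with Hoxa2 at 0.01 and Meis1 at 0.01. Without SCNx CT32 and Ctrl CT4, Meis1 was at -0.01, and without SCNx CT0, Rarres2 was at -0.01.

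Of the other retinoic acid hydroxylases, Cyp26a1 was at or below 0.0665 CPM in Ctrl and reached 1.78 CPM in SCNx CT0, and Cyp26c1 stayed at or below 0.0454 CPM in all 24 libraries. In SCNx CT12, CT24 and CT40 both were below the level that a count of 0 allows, unlike Cyp26b1. Fabp5, a fatty acid carrier that also binds retinoic acid, had 1.57 ± 1.54 CPM in Ctrl and 2.58 ± 3.54 CPM in SCNx, with 11.7 CPM in SCNx CT32, 8.25 in SCNx CT0 and 6.34 in Ctrl CT4.

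**Figure D5:**
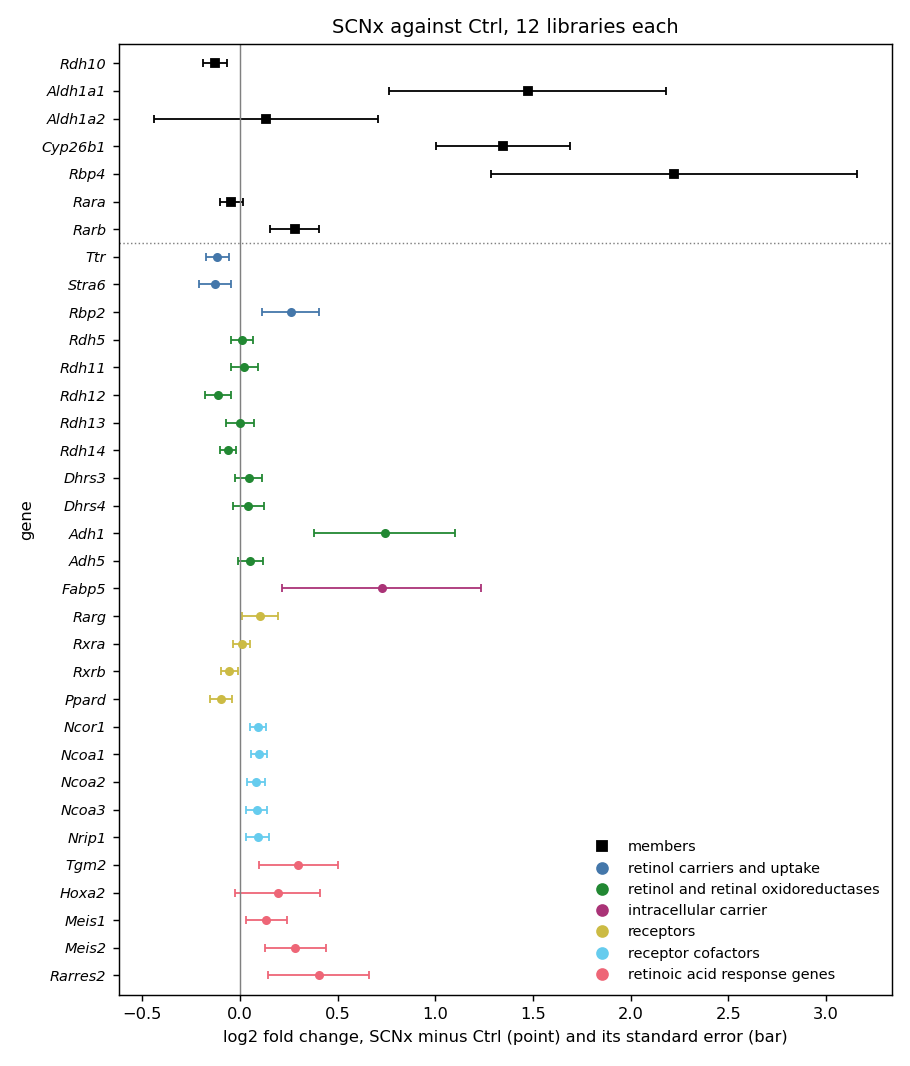
Log2 fold change (SCNx minus Ctrl, point) with its standard error (bar) for the 7 tested members (squares, no test) and tested genes of the wider list (circles, coloured by role), 12 libraries per group. Rbp4 (2.22), Aldh1a1 (1.47) and Cyp26b1 (1.35) lie farthest to the right, and the genes of the wider list lie between -0.13 and 0.74.

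Single libraries set several levels of the wider list, as the following genes show, which were picked after their values were seen. In SCNx CT0, rich in hepatocyte markers, Adh1, an alcohol dehydrogenase of the liver, held 318 CPM, and Ctrl CT16 came next with 62.2 CPM. Stra6l, a receptor for RBP4 in liver, had its highest values in the same libraries, 17 and 4.79 CPM, and so did Rarres2, the liver-made chemerin, with 48.3 and 16.2 CPM. In SCNx CT32, the homeobox genes Hoxa5 and Hoxb5, which pattern the caudal hindbrain and spinal cord, held 29.7 and 43.6 CPM, and in no other library were they above 0.452 and 0.553 CPM. Crabp1, Aldh1a2, Rarb and Meis2 had their highest values in SCNx CT32 too. The part of tissue next to the ChP in these values was not tested.

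In Ctrl, 1 of the 29 tested genes of the wider list was rhythmic, Dhrs3 (adjusted p = 0.023, edgeR), beside 10.7% of all genes. Its CPM was highest at CT0 (116) and CT24 (116) and lowest at CT12 (75.9) and CT36 (79.8), so both cycles had their extremes at the same hours. Its fitted maximum lay at 23.8 h, and the amplitude was 0.22 ± 0.06 on the log2 scale (SE), a 1.36-fold change from trough to peak. The call was lost without Ctrl CT0, CT12 or CT24 (adjusted p = 0.0634 to 0.0715, edgeR). The difference of its rhythm between the groups was not called over all 24 libraries (adjusted p = 0.148, edgeR). It was called without SCNx CT32 (adjusted p = 0.0117, edgeR) and without SCNx CT32 and Ctrl CT4 (adjusted p = 0.00518, edgeR). SCNx CT32 held 67.6 CPM of Dhrs3, the lowest of the 24 libraries. Rxrb, a partner of the retinoic acid receptors, missed the threshold in Ctrl (adjusted p = 0.061, edgeR). It passed it without Ctrl CT16, Ctrl CT40, SCNx CT0, SCNx CT8, SCNx CT12 or SCNx CT32 (adjusted p = 0.015 to 0.0495, edgeR), and with DESeq2 (adjusted p = 0.0267).

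The genes with a library pattern most like that of Cyp26b1 were ranked by Pearson's r of log2 CPM over the 24 libraries of Ctrl and SCNx. The libraries share dissection and groups, and r is given as a description. The 10 highest among 13697 genes were Tnfaip2 (r = 0.735), Svil (0.727), Swt1 (0.702), Zfp939 (0.695), Zfp366 (0.687), Mtmr10 (0.665), Arrdc4 (0.653), Rarg (0.651), Zbed4 (0.633) and Spen (0.625). Rarg, the third retinoic acid receptor, is among them although it was no member. It had 15.8, 18.2 and 20.8 CPM in SCNx CT12, CT24 and CT40, and a highest Ctrl value of 19.6 CPM. Among the members Rarb came nearest (r = 0.557, rank 40), followed by Rbp4 (0.126), Aldh1a1 (0.0744), Aldh1a2 (-0.0837), Rdh10 (-0.205) and Rara (-0.214).

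The likeness of Rarb and Rarg to Cyp26b1 was lower without the high libraries. Spearman's rho over the 24 libraries was 0.559 for Rarb and 0.613 for Rarg. Without SCNx CT12, CT24 and CT40, r fell to 0.326 for Rarb and 0.408 for Rarg over 21 libraries. Without the 2 libraries farthest from the median of Cyp26b1 it was 0.491 and 0.433. Within Ctrl r was 0.486 and 0.392, and within SCNx 0.456 and 0.860. Tnfaip2, a gene known to respond to tumour necrosis factor, kept an r of 0.663 without the 3 libraries and had an r of 0.242 within Ctrl. It stood at 8.66, 10.02 and 9.501 CPM in SCNx CT12, CT24 and CT40, each above its highest Ctrl value of 8.34 CPM. Zfp366, a zinc finger factor, was at 8.07, 9.11 and 8.40 CPM there, with a highest Ctrl value of 7.50 CPM. Mtmr10 and Zbed4 were also above their Ctrl range in all 3 libraries. Svil, Swt1, Zfp939 and Spen were above it in 2 of the 3, Rarg in 1 and Arrdc4 in 0. The 3 libraries entered the ranking by r, so high values of these genes there were in part built in. Of all tested genes, 2.35%, 11.1% and 7.78% were above their highest Ctrl library in SCNx CT12, CT24 and CT40. The share above it in all 3 was not counted.

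The KO libraries held 1 mouse per time and differed from the others in genotype, drug, light, site, preparation and kit, which cannot be told apart, so their values are set beside those of Ctrl and SCNx with no comparison tested. They were scaled to their totals alone, and brackets give 95% exact Poisson intervals, which cover counting error. Arntl, the gene of BMAL1, had 10.6 CPM at ZT7 and 9.36 CPM at ZT18, inside the Ctrl range of 2.01 to 39.4. Counts of the whole gene do not show whether the floxed part was removed, and cells without the recombinase keep it. The ChP epithelium markers summed to 86871 CPM at ZT7 and 82521 CPM at ZT18, below all 24 Ctrl and SCNx libraries (105600 to 167134 CPM).

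Cyp26b1 had 6.66 CPM (5.50 to 7.98) at ZT7 and 10.9 CPM (9.39 to 12.5) at ZT18. The value at ZT18 lies above the Ctrl range of 2.95 to 8.06 CPM and below the 3 high SCNx libraries. Rarb had 8.55 CPM (7.23 to 10.04) and 9.03 CPM (7.69 to 10.5). Both values are above the Ctrl range of 5.05 to 8.17 CPM, with intervals that reach into it. Rara differed between the mice, with 14.9 CPM (13.2 to 16.8) at ZT7 and 23.9 CPM (21.7 to 26.3) at ZT18, below and above all 24 other libraries. The interval at ZT7 reaches into the ranges of Ctrl and SCNx, which start at 16.0 and 16.4 CPM.

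Rdh10 was at 38.1 CPM (35.3 to 41.1) and 38.2 CPM (35.4 to 41.1), below all 24 other libraries and equal between day and night within counting error. Dhrs3, rhythmic in Ctrl, was at 40.5 and 47.3 CPM and also below all of them. The low ChP epithelium sums of both KO libraries go with these values, and their part was not tested. Aldh1a1 had 31.2 CPM (28.6 to 33.9) and 42.6 CPM (39.6 to 45.7), above every Ctrl library, while the hepatocyte markers summed to 4.59 and 3.101 CPM. Aldh1a2 had 4.13 CPM (3.23 to 5.20) at ZT7 and 20.9 CPM (18.9 to 23.2) at ZT18, and the meningeal markers summed to 13.03 and 49.6 CPM in the same libraries. Crabp2 (0.689 and 2.44 CPM), Rbp4 (1.89 and 5.81 CPM), Aldh1a3 (0.516 and 1.11 CPM) and Crabp1 (0.0574 and 0.443 CPM) lay within the range of the other libraries. At ZT18, though, Rbp4 was above every Ctrl and SCNx library but SCNx CT0 and Ctrl CT16, and Crabp1 above every one but SCNx CT32. The neuron markers summed to 199 and 298 CPM and the astrocyte markers to 558 and 662 CPM in KO, and their part in these values was not tested.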

How the data were processed

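RNA of the choroid plexus was sequenced after rRNA depletion and polyA enrichment with a KAPA mRNA HyperPrep kit (Ctrl and SCNx) or, for KO, by laser capture and a Smarter Stranded totRNA kit. The authors ran the nf-core/rnaseq pipeline on GRCm39 and deposited estimated counts per gene from Salmon, with no normalization. The submitters' processing notes name STAR, Salmon 1.9.0, SAMtools 1.16.1, cutadapt 3.4 and StringTie 2.2.1.

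The estimated counts were rounded. CPM is the count over the library total times its TMM factor (0.955 to 1.08). Genes entered the tests at a mean CPM of 1 or more in both groups. Levels were fitted with 1 mean per group, and rhythms with a level plus cosine and sine terms of a 24 h period in each group, in edgeR 4.0.16 (quasi-likelihood F test, R 4.3.3), with Benjamini-Hochberg adjusted p-values over all 13697 genes at 0.05. The rhythm model held both groups with a shared estimate of the spread, so SCNx libraries also bear on the errors and p-values of Ctrl. DESeq2 1.42.0 and limma 3.58.1 served as alternatives. Each mouse was a separate animal, but with 1 mouse per group and time the spread includes differences between mice, and n = 12 per group limits the precision of an amplitude. The scripts were tested on simulated counts. For likeness and for the SE of amplitudes a prior count of 2 entered the log2 CPM. Those SE came from a least-squares fit of the same terms, while the amplitudes came from edgeR, so the 2 belong to different fits. Promoters were searched in Python 3.11.15, and plots drawn with matplotlib 3.10.9.

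Named genes are the 10 members, genes of the wider list that passed a test or otherwise the 2 with the largest mean CPM per role, and the 10 most like Cyp26b1. Some genes that this rule names are not reported here. Others are marked as picked after their values were seen. The members and lists were chosen with earlier results of these data known. KO was left out of the tests. Per-length levels, and coordinates on GRCm39, were not used here.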

Additional observations from a re-analysis of the deposited data

How the results depend on the processing

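The level test of the wider list gave 0 calls under every alternative and with each library left out, and members with a differing rhythm stayed at 0 likewise. The fit with circadian time as a block, which sets the Ctrl and the SCNx mouse of a time side by side, also gave 0 calls in the wider list (937 genes at an unadjusted p below 0.05, against 1283 without the block). The labels give no replicate numbers, so the block is the shared hour alone. Members rhythmic in Ctrl fell from 1 to 0 with no filter on low counts, with a linear trend added and without Ctrl CT16 and SCNx CT0, and ranged from 0 to 1 with single libraries left out. Members rhythmic in SCNx were 2 with no filter (Rbp4 and Crabp1, each with 1 outstanding library) and 1 with DESeq2 (Rbp4), and 0 in each fit with 1 library left out. Rhythmic genes of the wider list in Ctrl were 2 (Dhrs3 and Rxrb) with DESeq2, without SCNx CT12, CT24 and CT40, and without Ctrl CT16 and SCNx CT0, and ranged from 0 to 2 with single libraries left out. The cause of these changes was not tested. Over all genes, rhythms called in SCNx went from 0 to 432 with DESeq2 and 1384 without the filter, and differences of the rhythm from 291 to 589 and 654. The differences were 65 without SCNx CT12, CT24 and CT40 and 504 without Ctrl CT4 and SCNx CT32, which brought rhythms in Ctrl from 1459 to 2223. Without SCNx CT32 alone there were 2249 rhythms in Ctrl and 466 differences, and without Ctrl CT4 alone 1456 and 324. DESeq2 called 14 genes between the groups, where edgeR called 0. The log2 fold change of Rbp4 was 0.28 with DESeq2, 0.54 with limma-trend and 0.28 with the time block. That of Aldh1a2 was -0.62 with DESeq2. That of Cyp26b1 lay between 0.53 and 1.49 over all alternatives, and no alternative called its rhythm in Ctrl. A differing rhythm in the wider list was called for 0 genes over all libraries, for Dhrs3 without SCNx CT32, alone or with Ctrl CT4, and for Stra6l, Hoxa5 and Hoxb5 with no filter. These fits without SCNx CT32, those of the response genes and the marker counts without Ctrl CT4 were added with the values already known. The linear trend was added after the data had been seen for results other than the members' rhythm in Ctrl.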
